A study of Mus musculus with 8 samples.

Results

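Immunoglobulin genes were followed in RNA of CD4+ T cells sorted from spleen. They were read as rows of the deposited table named after heavy, kappa or lambda V, D, J or constant genes, or *Jchain*. Members were chosen by their value summed over the 8 libraries, with a minimum of 60, and 25 of the 390 rows with such names passed. The summed values chose the members and are given only as a description. Just inside the limit were *Iglv1* at 73, *Ighv3-6* at 67 and *Iglc2* at 60, and just outside were *Igkv14-111* at 54, *Igkv15-103* at 50 and *Ighv7-3* at 46. The 8 libraries came from CD4+ Foxp3+ cells (Tregs) and from CD4+ Foxp3- cells (Tconvs), with 2 libraries in each of 4 groups and 200000 sorted cells behind each. Control mice were CD27+/-, and CD70Tg mice were CD11c-*Cd70*tg and CD27+/-, so that both genotypes lacked one *Cd27* allele. The CD11c promoter drives the CD70 transgene mainly in dendritic cells. A Foxp3 reporter served for the sort, and mice of the study were analyzed at 6 to 8 weeks of age. Libraries are numbered below in the order of the table, since its columns do not carry the replicate numbers of the titles. Whether the 2 libraries of a group came from separate mice is not given in the sources used here, so that p-values measure only the spread between these libraries, which may be technical.

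An immunoglobulin is made of heavy and light chains. In B cells, V, D and J segments of the heavy locus and V and J segments of a light locus are joined by recombination, and the joined exon is spliced to a constant gene. Before joining, the loci can be transcribed in germline form, from promoters near the D, J or constant genes, which gives RNA with a constant region but no V segment. T cells rearrange their receptor genes instead, and transcripts of the unjoined heavy locus, driven by the intronic enhancer between the J segments and *Ighm*, are known in T cells as well.

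The sequences of the short D and J segments are shown because their rows are among those that differed between the cell types or the genotypes. For *Ighj2*, the coding transcript is printed, while the counted row also holds a second transcript that overlaps its end. They were read from the GENCODE M21 transcripts (GRCm38), and capitals mark the 12 bases coding the W-G-X-G or F-G-X-G motif by which a J segment is recognized. *Igkj3*, whose row is no member, is printed for comparison, and its capitals are the bases in the same place, which do not code that motif.
Ighd4-1 (chr12:113430528-113430538, minus strand): ctaactgggac
Ighj1 (chr12:113429781-113429833, minus strand): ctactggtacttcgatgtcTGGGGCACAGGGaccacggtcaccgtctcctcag
Ighj2 (chr12:113429468-113429515, minus strand): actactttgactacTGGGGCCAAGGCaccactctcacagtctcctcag
Ighj3 (chr12:113429085-113429132, minus strand): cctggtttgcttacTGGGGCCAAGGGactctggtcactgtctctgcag
Ighj4 (chr12:113428514-113428567, minus strand): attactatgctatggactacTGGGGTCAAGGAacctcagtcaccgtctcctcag
Igkj1 (chr6:70722562-70722599, plus strand): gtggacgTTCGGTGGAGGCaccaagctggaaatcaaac
Igkj2 (chr6:70722916-70722954, plus strand): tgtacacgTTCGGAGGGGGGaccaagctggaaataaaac
Igkj3 (chr6:70723223-70723260, plus strand): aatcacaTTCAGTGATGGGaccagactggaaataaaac
Igkj4 (chr6:70723548-70723585, plus strand): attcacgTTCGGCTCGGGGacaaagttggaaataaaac
Igkj5 (chr6:70723886-70723923, plus strand): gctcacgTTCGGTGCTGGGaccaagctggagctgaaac

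All values are reads per gene scaled to 20 M per library. The step between low values gave 1.90 to 33.18 M reads behind the libraries, with the Treg libraries (1.90 to 4.52 M) shallower than the Tconv libraries (6.90 to 33.18 M). The value given by 3 reads, taken as the floor, was 2 to 9 in Tconv and 14 to 32 in Treg libraries, and covers counting error only. The cells had the markers of their labels. The 4 Treg markers were called higher in Tregs in both genotypes, with *Foxp3* at 19769 to 21367 in Tregs and 1039 to 1497 in Tconvs, and the 6 T cell markers (*Cd3d*, *Cd3e*, *Cd3g*, *Cd4*, *Cd5* and *Lck*) summed to 101700 to 109671 in Tconvs and 76524 to 80151 in Tregs. None of them passed the threshold on the fold change, though in control Tregs *Cd4* was 0.606-fold (adjusted p = 0.000168, limma) and *Cd3d* 0.603-fold (adjusted p = 0.000264, limma) the Tconv level. In bulk RNA, more cells with a transcript and more transcript per cell cannot be told apart.

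Most immunoglobulin rows were empty. Of the 390, 231 were at 0 in every library and 335 never rose above the floor. The members comprised 5 of 7 heavy constant rows, the 4 heavy J rows, the kappa constant gene, 4 of 5 kappa J rows, 2 of 4 lambda constant rows and *Jchain*, but 3 of 185 heavy V rows, 3 of 160 kappa V rows, 1 of 3 lambda V rows and 1 of 20 D rows. *Ighm* alone took 0.0496 to 0.0618% of a Tconv library and 0.184 to 0.245% of a Treg library. The other 24 members together took 0.00174 to 0.0324%.

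**Figure D1:**
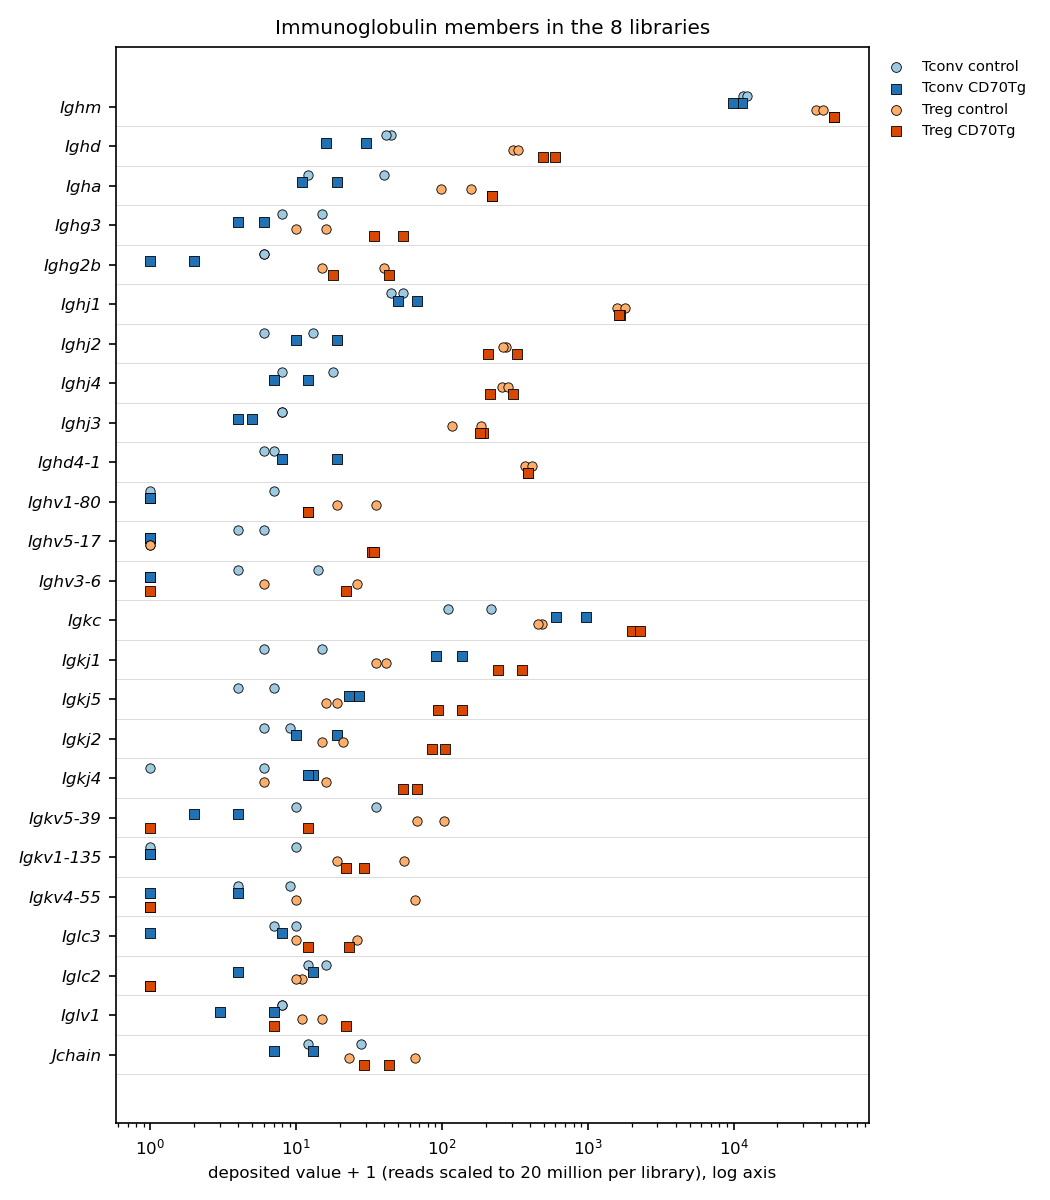
Deposited value + 1 (log axis) of the 25 members, with 1 point per library, grouped by class from heavy constant genes at the top to *Jchain*. *Ighm* lies at 9945 to 12353 in Tconvs and at 36883 to 49097 in Tregs, the heavy J and D rows are separated by cell type, and *Igkc* and the kappa J rows are separated by genotype as well.

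The heavy constant genes encode the antibody classes. *Ighm* (chr12:113418558-113422730), the constant gene of IgM, was at 11551 and 12353 in control Tconvs, 11493 and 9945 in CD70Tg Tconvs, 36883 and 41126 in control Tregs, and 49097 and 48989 in CD70Tg Tregs. Every Treg library was above every Tconv library, and both CD70Tg Treg libraries were above the control Treg libraries. Tregs were 3.26-fold above Tconvs in control mice (log2 fold change 1.70 ± 0.13 SE, adjusted p = 2.89e-08, limma) and 4.59-fold in CD70Tg mice (2.20 ± 0.13 SE, adjusted p = 2.56e-09, limma). Between genotypes, the log2 fold change of *Ighm* was 0.33 ± 0.13 (SE) in Tregs (adjusted p = 0.133, limma) and -0.16 ± 0.13 (SE) in Tconvs (adjusted p = 0.581, limma).

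*Ighd*, the constant gene of IgD, lies 3' of *Ighm*. Its values were 44 and 40 in control Tconvs, 15 and 29 in CD70Tg Tconvs, 306 and 333 in control Tregs, and 492 and 599 in CD70Tg Tregs. The libraries of the genotypes did not overlap in either cell type, with the CD70Tg libraries lower in Tconvs and higher in Tregs. Neither change passed the test, with log2 fold changes of -0.85 ± 0.32 (SE) in Tconvs (adjusted p = 0.125, limma) and 0.76 ± 0.32 (SE) in Tregs (adjusted p = 0.173, limma). The difference between these was 1.61 ± 0.45 (SE) on the log2 scale (adjusted p = 0.12, limma). Without the second CD70Tg Tconv library, the change in Tconvs was -1.23 (adjusted p = 0.0488, limma). Relative to *Ighm* in the same library, the value of *Ighd* was 0.131 to 0.381% in Tconvs and 0.81 to 1.22% in Tregs.

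*Igha*, for the IgA class of mucosal antibody, was at 39 and 11 in control Tconvs, 18 and 10 in CD70Tg Tconvs, 156 and 97 in control Tregs, and 220 and 218 in CD70Tg Tregs. It was higher in Tregs in both genotypes, by a log2 fold change of 2.27 ± 0.47 (SE) in controls (adjusted p = 0.000895, limma) and 3.59 ± 0.47 (SE) in CD70Tg mice (adjusted p = 1.72e-05, limma). *Igha* reached the minimum value for testing in Treg libraries only, and so had to differ between the cell types to be tested. *Ighg3* and *Ighg2b*, IgG constant genes, stayed under the minimum for testing. *Ighg3* was at 14 and 7 in control Tconvs, 3 and 5 in CD70Tg Tconvs, 15 and 9 in control Tregs, and 53 and 33 in CD70Tg Tregs, while in control Tregs neither library was above the floor. The mean of *Ighg3* in CD70Tg Tregs was 3.11 times that floor, on 5 and 6 reads, and 2.38 times without the higher library. With no minimum value, *Ighg3* was not called between genotypes in Tregs (log2 fold change 1.49, adjusted p = 0.171, limma). *Ighg2b* was at 0 to 5 in Tconvs and 14 to 42 in Tregs. The heavy constant rows without membership were those of *Ighg1*, at 0 in every library, and *Ighg2c*, at 0 to 15.

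The heavy J segments and the D segment nearest to them were higher in Tregs and were not called between genotypes. *Ighj1*, the most upstream J segment, was at 53 and 44 in control Tconvs, 49 and 66 in CD70Tg Tconvs, 1587 and 1800 in control Tregs, and 1672 and 1648 in CD70Tg Tregs. The Treg libraries were far above all Tconv libraries, and the genotypes overlapped in Tregs. The log2 fold change of Tregs against Tconvs was 4.99 ± 0.22 (SE) in controls (adjusted p = 7.02e-11, limma) and 4.75 ± 0.22 (SE) in CD70Tg mice (adjusted p = 1.8e-10, limma). As a share of *Ighm* in the same library, the *Ighj1* value was 0.356 to 0.664% in Tconvs and 3.36 to 4.38% in Tregs.

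*Ighd4-1*, a D segment 7.81 kb upstream of *Ighm*, was at 6 and 5 in control Tconvs, 18 and 7 in CD70Tg Tconvs, 369 and 416 in control Tregs, and 387 and 387 in CD70Tg Tregs. It was the only D row of 20 with membership, and *Ighd3-2*, the next D row upstream with a value, at 25.5 kb from *Ighm*, was at 0 to 5. The log2 fold change of *Ighd4-1* in Tregs against Tconvs was 5.24 ± 0.38 (SE) in controls (adjusted p = 1.84e-08, limma) and 4.56 ± 0.38 (SE) in CD70Tg mice (adjusted p = 1.24e-07, limma). The remaining J segments were lower than *Ighj1*. *Ighj2* was at 5 to 18 in Tconvs and 207 to 324 in Tregs, *Ighj3* at 3 to 7 and 117 to 189, and *Ighj4* at 6 to 17 and 213 to 304. Each of these was called higher in Tregs in both genotypes, by log2 fold changes of 3.66 to 4.48. Like *Ighd4-1*, these J rows reached the minimum value for testing in Treg libraries only. Such rows had to differ between the cell types to be tested, so that their calls and p-values add little to the values themselves. Between genotypes, none of the 5 J and D rows was called in either cell type, with log2 fold changes of -0.08 to 0.32 in Tregs and -0.50 to 0.66 in Tconvs. A read that crosses a splice junction between genes may be counted for neither by HTSeq, whose counting mode and strand setting are not given in the sources used here. Levels per length were not compared for such short rows, since a read that only touches a row may be counted for it.

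**Figure D2:**
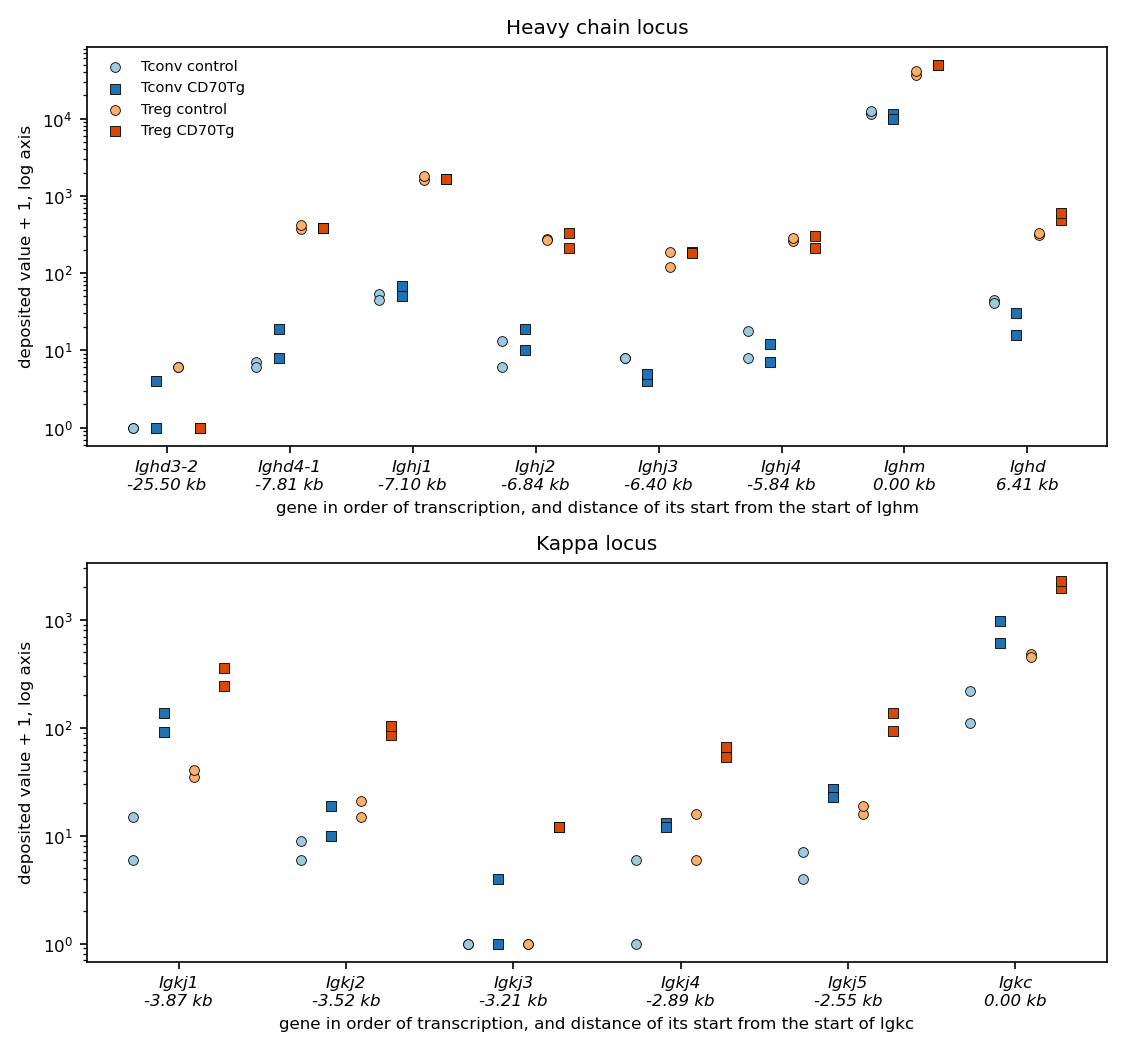
Deposited value + 1 (log axis) of heavy and kappa genes in the order of transcription, with the distance of each start from the start of *Ighm* or *Igkc* in kb, and 1 point per library. From *Ighd4-1* to *Ighd* the Treg libraries lie above the Tconv libraries, whereas *Ighd3-2* is at 0 to 5, and in the kappa panel the CD70Tg libraries lie above the control libraries of the same cell type from *Igkj1* to *Igkc*, except at *Igkj3*, where 1 CD70Tg Tconv library is at 0.

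At the kappa locus, the constant gene and the J rows *Igkj1* and *Igkj5* were higher in CD70Tg cells of both types. *Igkc* (chr6:70726435-70726966), the constant gene of the kappa light chain, was at 217 and 109 in control Tconvs, 606 and 973 in CD70Tg Tconvs, 481 and 456 in control Tregs, and 1996 and 2290 in CD70Tg Tregs. The groups did not overlap, and the order was control Tconvs, control Tregs, CD70Tg Tconvs and CD70Tg Tregs. *Igkc* was increased 4.86-fold in CD70Tg Tconvs (log2 fold change 2.28 ± 0.26 SE, adjusted p = 1.73e-05, limma) and 4.53-fold in CD70Tg Tregs (2.18 ± 0.26 SE, adjusted p = 7.33e-05, limma). The difference between these responses was -0.10 ± 0.37 (SE) on the log2 scale (adjusted p = 0.955, limma). Tregs were above Tconvs by a log2 fold change of 1.57 ± 0.26 (SE) in controls (adjusted p = 0.00014, limma) and 1.47 ± 0.26 (SE) in CD70Tg mice (adjusted p = 0.00032, limma). As a share of *Ighm* in the same library, *Igkc* was 0.882 to 1.88% in control and 4.07 to 9.78% in CD70Tg cells.

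*Igkj1*, the first kappa J segment, 3.87 kb upstream of *Igkc*, was at 14 and 5 in control Tconvs, 90 and 137 in CD70Tg Tconvs, 34 and 40 in control Tregs, and 241 and 354 in CD70Tg Tregs. The genotypes did not overlap in either cell type. The increase with CD70Tg was 8.43-fold in Tconvs (log2 fold change 3.07 ± 0.41 SE, adjusted p = 8.06e-05, limma) and 7.09-fold in Tregs (2.83 ± 0.41 SE, adjusted p = 0.000395, limma). Tregs were also above Tconvs, by a log2 fold change of 1.60 in controls (adjusted p = 0.00446, limma) and 1.36 in CD70Tg mice (adjusted p = 0.0138, limma). These calls between cell types were lost in controls without the second control Tconv library (1.14) and with a pseudocount of 20 (0.97), and in CD70Tg mice without the first CD70Tg Tconv (1.07) or the second CD70Tg Treg library (1.08) and with no minimum value (adjusted p = 0.0674, limma).

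*Igkj2* was at 8 and 5 in control Tconvs, 9 and 18 in CD70Tg Tconvs, 20 and 14 in control Tregs, and 84 and 104 in CD70Tg Tregs. Its increase in Tregs was 2.18 ± 0.50 (SE) on the log2 scale (adjusted p = 0.0137, limma), and was lost as a call without the second control (1.98) or the second CD70Tg Treg library (2.03), with no minimum value (adjusted p = 0.0655, limma), and with limma-voom on reads (adjusted p = 0.0527). For Tconvs the log2 fold change of 0.65 ± 0.50 (SE) did not pass (adjusted p = 0.561, limma). *Igkj5*, the J segment nearest to *Igkc*, was at 6 and 3 in control Tconvs, 26 and 22 in CD70Tg Tconvs, 15 and 18 in control Tregs, and 136 and 93 in CD70Tg Tregs. Both CD70Tg groups were above their controls, by log2 fold changes of 2.45 ± 0.47 (SE) in Tregs (adjusted p = 0.00468, limma) and 1.62 ± 0.47 (SE) in Tconvs (adjusted p = 0.0415, limma). The call in Tregs was lost with no minimum value (adjusted p = 0.0521, limma), and that in Tconvs with the same setting (adjusted p = 0.156, limma) and also with a pseudocount of 20 (0.85) and without any single Tconv library (1.40 to 1.85). *Igkj5* was higher in control Tregs than in control Tconvs by 1.19 on the log2 scale (adjusted p = 0.0498, limma), a call lost without any single Tconv or control Treg library (0.96 to 1.42), with no minimum value, with a pseudocount of 20 (0.58) and with the 4 libraries compared alone.

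*Igkj4*, not tested, was at 0 and 5 in control Tconvs, 11 and 12 in CD70Tg Tconvs, 5 and 15 in control Tregs, and 53 and 66 in CD70Tg Tregs. In control Tregs neither library exceeded the floor. The mean in CD70Tg Tregs was 4.3 times that floor, on 5 and 12 reads, and 3.83 times without the higher library. With no minimum value, *Igkj4* was not called between genotypes in Tregs (log2 fold change 2.18, adjusted p = 0.0945, limma). *Igkj3*, below the limit for membership, was at 0 in all control libraries, at 3 and 0 in CD70Tg Tconvs, and at 11 and 11 in CD70Tg Tregs. The lincRNA *Gm30211* spans the kappa J segments and *Igkc* on the same strand, with these in its introns and without exon overlap. *Gm30211* was at 7 and 0 in control Tconvs, 136 and 167 in CD70Tg Tconvs, 0 and 9 in control Tregs, and 189 and 310 in CD70Tg Tregs, so that it too was higher in every CD70Tg library.

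Of the kappa V members, *Igkv5-39* alone was tested. It reached the minimum value for testing in control Tregs only, which favours calls of a decrease with CD70Tg and of an excess in Tregs. This segment, the V row with the largest sum, was at 9 and 34 in control Tconvs, 3 and 1 in CD70Tg Tconvs, 102 and 66 in control Tregs, and 11 and 0 in CD70Tg Tregs. It was lower in each CD70Tg library than in either control library of the same cell type, and was at or under the floor in both CD70Tg groups, hence at least 3.52-fold lower in Tregs and at least 4.12-fold lower in Tconvs. The bound in Tconvs rests on the second control library, without which it is 1.72-fold. The decrease was called in Tregs (adjusted p = 0.0063, limma) but not in Tconvs (adjusted p = 0.133, limma). The call in Tregs was lost without the first control Treg (log2 fold change -2.99) or the second CD70Tg Treg library (-2.45), with no minimum value (adjusted p = 0.0715, limma), and with limma-voom on reads (adjusted p = 0.0924). In controls, *Igkv5-39* was higher in Tregs than in Tconvs by 1.90 on the log2 scale (adjusted p = 0.0281, limma), a call lost without the first control Tconv (1.16) or the first control Treg library (1.60), with no minimum value (adjusted p = 0.115, limma) and with a pseudocount of 1 (adjusted p = 0.128, limma).

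The other V members rested on few reads. *Igkv1-135* was at 0 to 9 in Tconvs and 18 to 54 in Tregs, and *Igkv4-55* at 64 and 9 in control Tregs and 0 in both CD70Tg Treg libraries. *Ighv5-17* was at 5 and 3 in control Tconvs, 0 in both CD70Tg Tconv and both control Treg libraries, and 32 and 33 in CD70Tg Tregs. *Ighv1-80* reached 34 and *Ighv3-6* reached 25, both in the first control Treg library. Close V copies can share reads, so that the identity of a single V row is uncertain.

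The 160 kappa V rows, members or not, were summed and set against *Igkc*, each per exon length, as a description without a test. A joined and spliced kappa transcript holds 1 V segment and 1 constant region. In control libraries the summed V level was of the order of the *Igkc* level, at 104 and 138% of it in Tconvs and 117 and 73.4% in Tregs. In CD70Tg libraries it was 7.97 and 5.59% in Tconvs and 12.3 and 9.22% in Tregs. The kappa V sum was lower in each CD70Tg library than in either control library of the same cell type. It was at 155 and 102 in control and 33 and 38 in CD70Tg Tconvs, and at 390 and 232 in control and 174 and 149 in CD70Tg Tregs. The lower share thus went with a lower V sum as well as a higher *Igkc* value. Values were rounded up, which raises sums over many rows of few reads, and with them these shares. The kappa J members, summed, were at 11.9 to 17.5% of the *Igkc* value in controls and 19.3 to 26.9% in CD70Tg cells. With only the 3 kappa V members, the share was 17.1 to 66.3% in controls and 0.158 to 2.27% in CD70Tg cells. At the heavy locus the summed level of the 185 V rows was 1.21 to 5.25% of the *Ighm* level per length in all libraries.

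**Figure D3:**
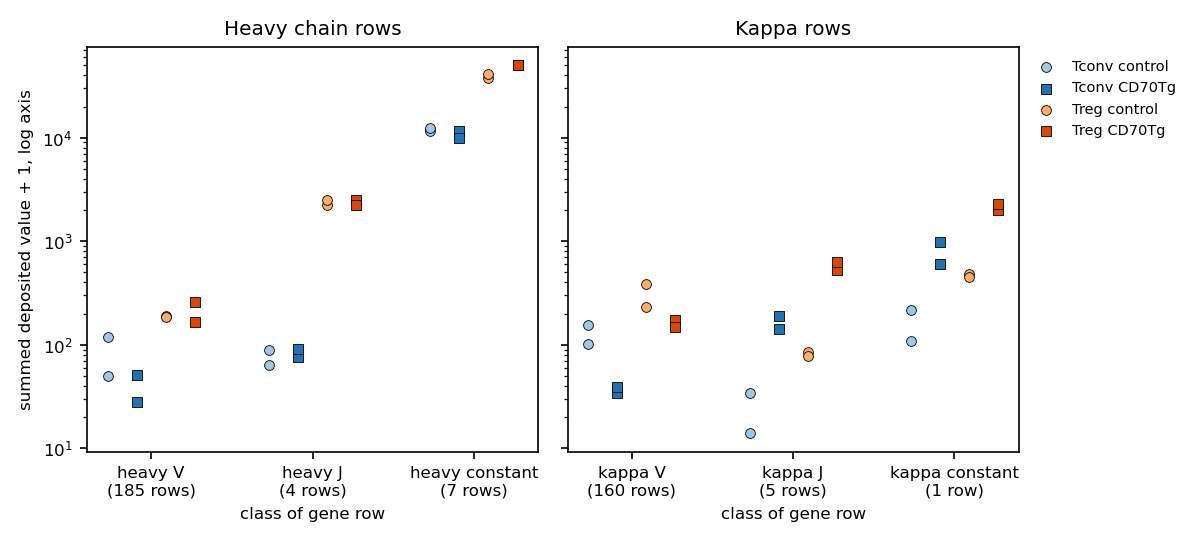
Summed deposited value + 1 (log axis) of all V, J and constant rows of the heavy (left) and kappa (right) locus, with 1 point per library. Kappa V sums are 102 to 390 in control and 33 to 174 in CD70Tg libraries, whereas the kappa constant value is 109 to 481 in control and 606 to 2290 in CD70Tg libraries.

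The lambda genes and *Jchain* were low in all libraries. *Iglc3* was at 0 to 25, *Iglc2* at 0 to 15 and *Iglv1* at 2 to 21 across the 8 libraries. *Iglc2* was at 10 and 9 in control and at 0 in both CD70Tg Treg libraries, all of them at or below the floor. *Iglc3* shares 20.6% of its exon length with *2010309G21Rik* and *Iglc2* 6.2% with *Iglj2*, so that their reads may be split. *Jchain*, the peptide that joins IgM and IgA into polymers, was at 27 and 11 in control Tconvs, 6 and 12 in CD70Tg Tconvs, 64 and 22 in control Tregs, and 42 and 28 in CD70Tg Tregs. The genotypes overlapped in both cell types.

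Of the 25 members, 13 reached 60 in 2 libraries and were tested among 12816 genes. Of these, 2 (*Ighm* and *Igkc*) reached 60 in all libraries and 1 (*Ighj1*) in a single Tconv library. A further 9 did so in no Tconv library (*Ighd*, *Igha*, *Ighd4-1*, *Ighj2*, *Ighj3*, *Ighj4*, *Igkj2*, *Igkj5* and *Igkv5-39*), so that a member which passed through Tregs alone had to differ between the cell types. The same holds between genotypes for the 3 that reached 60 in CD70Tg libraries only (*Igkj1*, *Igkj2* and *Igkj5*) and the 1 that did so in control libraries only (*Igkv5-39*). Of the members called between genotypes, *Igkc* alone passed the minimum in every group, and nothing is read from the counts of the others against the shares of all genes. With CD70Tg, 4 tested members were higher in Tregs (*Igkc*, *Igkj1*, *Igkj2* and *Igkj5*) against 2.53% of all genes tested, and 1 was lower (*Igkv5-39*) against 1.08%. In Tconvs, 3 were higher (*Igkc*, *Igkj1* and *Igkj5*) against 4.07% of all genes, and 0 lower against 0.577%, with 5 members at an unadjusted p under 0.05 in either direction. No member was called for a difference between the 2 responses by limma, where 3 had an unadjusted p under 0.05 and 0.148% of all genes were called higher and 0.733% lower in Tregs. Tregs were higher than Tconvs for 12 of the 13 in control mice (all but *Igkj2*), against 14.7% of all genes, and for 12 in CD70Tg mice (all but *Igkv5-39*), against 12.3%. These counts were largely fixed by the minimum for testing, and nothing is read from them against the shares of all genes. None was lower in Tregs in either genotype, where 4.43 and 4.94% of all genes were, and in each genotype 12 members had an unadjusted p under 0.05. These comparisons share libraries, and their values stand side by side without a test between them.

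**Figure D4:**
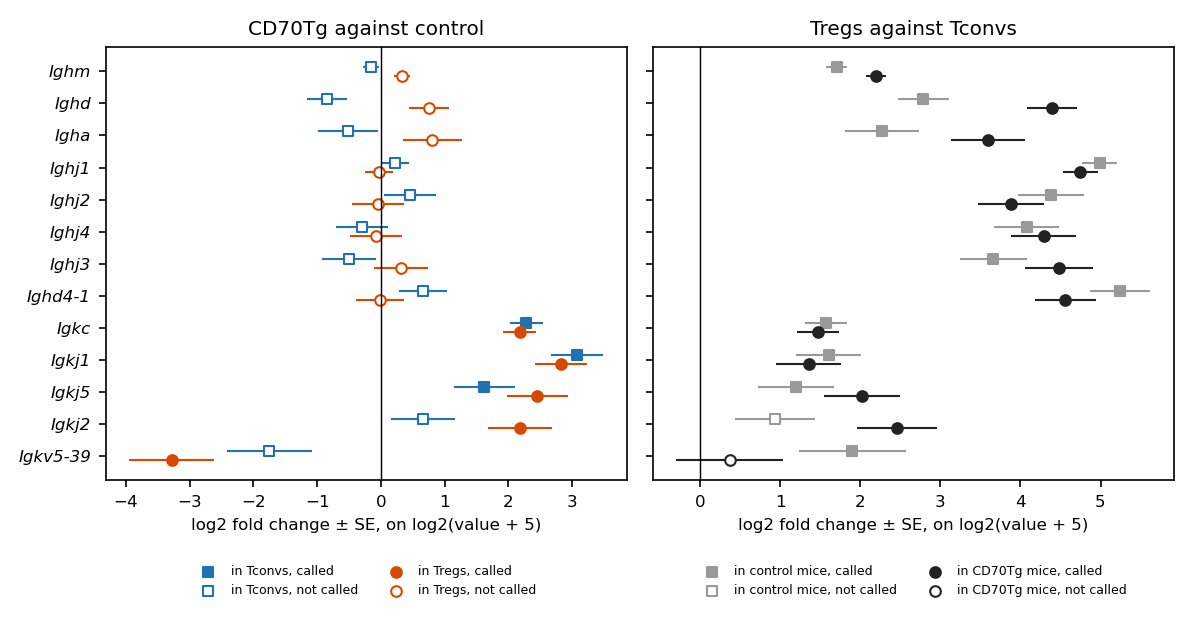
Log2 fold change ± SE on log2(value + 5) of the 13 tested members, for CD70Tg against control (left) and Tregs against Tconvs (right). Filled points passed both thresholds (adjusted p under 0.05, log2 fold change above 1 in size), and on the left these are *Igkc*, *Igkj1*, *Igkj5*, *Igkj2* in Tregs, and *Igkv5-39* in Tregs.

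Markers of cells that make immunoglobulin were read beside these values. Before CD3+ CD4+ cells were sorted, granulocytes, macrophages, dendritic, NK, B and CD8+ cells had been removed on magnetic columns, with antibodies that included anti-GR1, anti-CD11c, anti-MHCII, the erythroid anti-Ter119 and, for Tconvs only, anti-CD25. Defining B cell genes were low, with *Ms4a1* (CD20) at 0 to 12 in Tconvs and 11 to 44 in Tregs, and *Pax5*, the B lineage factor, at 0 to 48 and 6 to 32. *Cd79a* and *Cd79b*, the signalling chains of the B cell receptor, were at 22 to 57 and 35 to 67 in Tconvs, and at 49 to 126 and 165 to 272 in Tregs. *Cd79b* was higher in Tregs by a log2 fold change of 1.74 in controls (adjusted p = 0.000435, limma) and 2.49 in CD70Tg mice (adjusted p = 1.91e-05, limma), and *Cd79a* by 1.92 in CD70Tg mice (adjusted p = 0.000841, limma). The 17 B cell markers summed to 1747 to 1952 in control and 1389 to 1579 in CD70Tg Tconvs, and to 2034 to 2363 in control and 1731 to 1791 in CD70Tg Tregs, of which *Cd72* alone gave 854 to 1443. Of the 6 tested, 1 (*Fcmr*, the IgM receptor) was lower with CD70Tg in each cell type and 0 were higher. Of all genes tested, 1.08% were lower and 2.53% higher in Tregs, and 0.577 and 4.07% in Tconvs. The call of *Fcmr* in Tconvs (adjusted p = 0.0274, limma) was lost without any 1 of the 4 Tconv libraries, with an adjusted p of up to 0.226 under the alternatives, and in Tregs (0.00136) only with no minimum value (0.0535). In Tregs against Tconvs, 3 were higher in each genotype (*Cd79b* and *Fcmr* in both, *Bank1* in controls, *Cd79a* in CD70Tg mice) and 1 (*Cd22*) was lower in CD70Tg mice. Of these, the calls of *Bank1* and *Cd22* were lost under some alternatives, with adjusted p-values of up to 0.184 and 0.101. The part of B cell RNA in the immunoglobulin values was not tested.

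Plasma cell genes were read likewise. *Tnfrsf17* (BCMA), the survival receptor of plasma cells, was at 0 in every library, which allows up to 32 in the shallowest library, and *Mzb1* was at 0 to 11, *Derl3* at 0 to 14 and *Sdc1* (CD138) at 0 to 36. Of the 13 plasma cell markers, 7 were tested, and those called with CD70Tg, *Prdm1* and *Slamf7* in Tconvs, are also expressed by activated T cells. The *Slamf7* call was lost with no minimum value (adjusted p = 0.0763, limma). In Tregs against Tconvs, *Prdm1* was 7.37-fold higher in controls (adjusted p = 7.24e-10, limma) and 2.83-fold higher in CD70Tg mice (adjusted p = 1.59e-06, limma), *Irf4* was 3.83-fold higher in controls (adjusted p = 2.37e-06, limma), and *Slamf7* was lower in CD70Tg mice (0.397-fold, adjusted p = 0.00126, limma). The sum of the list, mostly *Fam46c*, *Xbp1*, *Txndc5*, *Prdm1* and *Irf4*, was 10231 to 11602 in control and 13941 to 14055 in CD70Tg Tconvs, and 13000 to 13170 and 13558 to 13954 in Tregs. Plasmacytoid dendritic cell markers included *Siglech* at 0 to 28, *Klk1* at 0 to 15 and *Cox6a2* at 0 to 27. Of these 10 genes, *Runx2* and *Irf8* were higher with CD70Tg in both cell types, though with no minimum value *Runx2* was not called in Tregs (adjusted p = 0.0575, limma) nor *Irf8* in Tconvs (adjusted p = 0.0722, limma). The sum, mostly *Pacsin1*, *Bst2* and *Irf8*, was 4719 to 5194 in control and 5213 to 6816 in CD70Tg Tconvs. In Tregs it was 5689 to 6045 in control and 7852 to 7958 in CD70Tg libraries. Tregs were higher for *Irf8* and *Tcf4* in both genotypes, for *Runx2* in controls and for *Ccr9* in CD70Tg mice.

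Genes of other cells also moved with the groups. The 8 macrophage markers summed to 1835 to 2101 in control and 1502 to 2056 in CD70Tg Tconvs, and to 5832 to 5928 in control and 4457 to 4507 in CD70Tg Tregs. Between cell types, 7 were higher in Tregs in each genotype (*Adgre1*, *Csf1r*, *Vcam1*, *C1qa*, *C1qb* and *C1qc* in both, *Cd68* in controls and *Lyz2* in CD70Tg mice), against 14.7% of all genes tested in controls and 12.3% in CD70Tg mice. With CD70Tg, *Cd68* was higher in Tconvs. In Tregs none was called with CD70Tg, with a median log2 fold change of -0.55. The 6 neutrophil markers summed to 5 to 39 in the 6 other libraries and 233 to 259 in CD70Tg Tregs, with *S100a9* called and *S100a8* and *Ltf* next in sum. The erythroid list gave 4 of 5 genes higher in CD70Tg than in control Tregs (the globin genes *Hba-a1*, *Hba-a2*, *Hbb-bs* and *Hbb-bt*), with sums of 2406 to 4014 against 566 to 1583. Of all genes tested, 2.53% were higher in this comparison. Each of the 4 globin calls was lost without the first control or the first CD70Tg Treg library, with no minimum value and with limma-voom on reads, with highest adjusted p-values of 0.115 to 0.238. In CD70Tg mice all 5 erythroid genes were higher in Tregs than in Tconvs, 2.84-fold (*Hbb-bs*) to 3.5-fold (*Hba-a2*), and so was *S100a9*, 12.9-fold (adjusted p = 0.000228, limma). Of these, *Alas2*, *Hbb-bs* and *Hbb-bt* lost the call under some alternatives (adjusted p of up to 0.0999, 0.0842 and 0.0629). The part of such RNA in the immunoglobulin values was not tested.

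**Figure D5:**
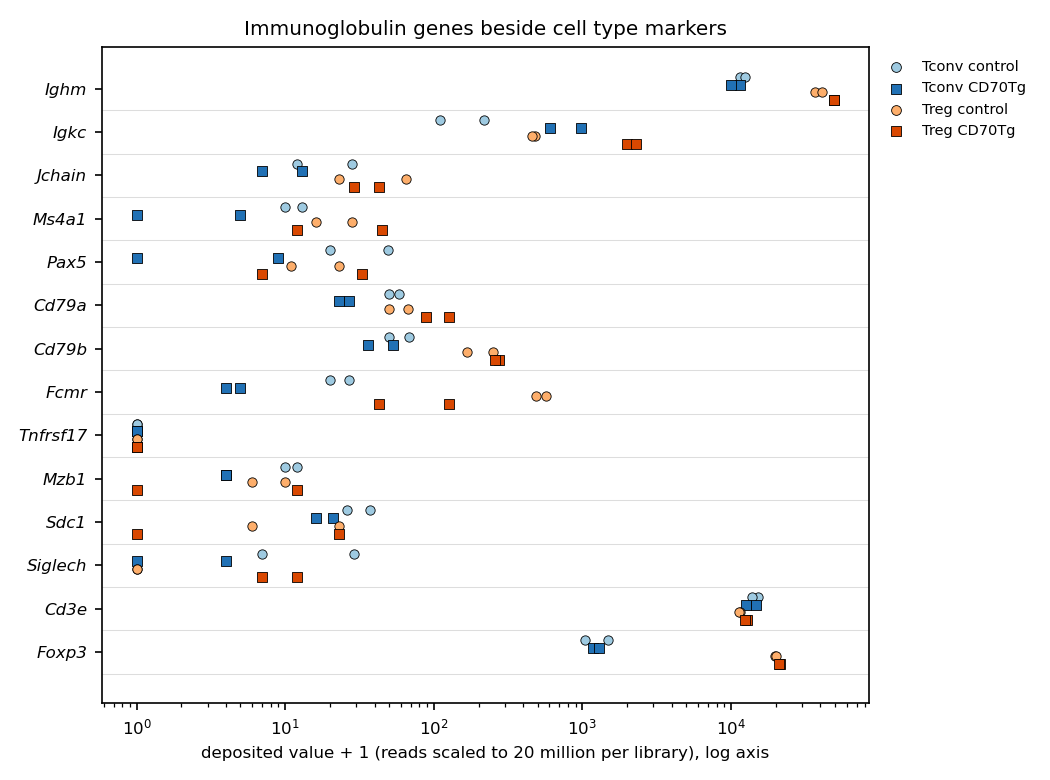
Deposited value + 1 (log axis) of *Ighm*, *Igkc* and *Jchain* beside markers of B cells (*Ms4a1* to *Fcmr*), plasma cells (*Tnfrsf17*, *Mzb1*, *Sdc1*), plasmacytoid dendritic cells (*Siglech*) and T cells (*Cd3e*, *Foxp3*), with 1 point per library. *Tnfrsf17* is at 0 in every library and *Fcmr* falls from 486 and 565 to 42 and 126 with CD70Tg in Tregs.

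Genes that act on immunoglobulin loci were listed by role. The recombinase genes *Rag1* and *Rag2* were at 0 to 6 and at 0, and the surrogate light chain gene *Igll1* was at 0. *Dntt*, which adds bases at joints, was at 227 to 294 in Tconvs and 0 to 25 in Tregs, and was lower in Tregs in both genotypes. In Tregs it was at 25 and 22 in control and 0 and 6 in CD70Tg libraries, where 3 reads are worth 32 and 17, so that no fold is given. That difference had an adjusted p of 0.00865 (limma), and of up to 0.266 under the alternatives. Of the 8 genes of this list 3 were tested, and of these *Il7r* and *Vpreb1* were not called.

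Of 16 factors known to bind immunoglobulin enhancers or promoters, 13 were tested. With CD70Tg, *Irf8* was higher in both cell types (in Tconvs not with no minimum value, as above), *Nfkb1*, a subunit of NF-κB, higher in Tconvs (log2 fold change 1.02, adjusted p = 2.08e-05, limma), and *Pou2af1*, the coactivator of octamer factors, lower in both. *Pou2af1* was at 733 and 459 in control and 199 and 143 in CD70Tg Tconvs, and at 117 and 132 in control and 42 and 60 in CD70Tg Tregs. Its call in Tregs (adjusted p = 0.0206, limma) was lost without either control or the first CD70Tg Treg library (0.0955 to 0.129), and the adjusted p was 0.51 with limma-voom on reads. The median log2 fold change of the 13 was -0.10 in Tregs and 0.06 in Tconvs, beside -0.05 and 0.01 over all genes tested. In Tregs against Tconvs, 6 were higher and 2 lower in controls, and 4 higher and 2 lower in CD70Tg mice, among them *Irf8*, *Tcf4* and *Pou2f2* (Oct-2) as higher and *Ikzf1* and *Pou2af1* as lower in both genotypes. Of all genes tested, 14.7% were higher and 4.43% lower in Tregs in controls, and 12.3 and 4.94% in CD70Tg mice. In CD70Tg mice the *Pou2af1* call was lost with limma-voom on reads (adjusted p = 0.0737). *Irf4*, *Ikzf3* and *Nfkb1* were higher in controls and *Spi1* in CD70Tg mice. *Pou2f2* was at 664 to 942 in Tconvs and 2654 to 4248 in Tregs. Of 10 receptors that bind immunoglobulin, 5 were tested, and *Fcmr*, *Fcer1g* and *Fcgr4* were higher in Tregs in both genotypes, while *Fcmr* was lower with CD70Tg in both cell types. *Fcmr* and *Fcgr4* reached 60 in Tregs alone.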

How the data were processed

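The authors removed adapters with Trimmomatic 0.36, mapped paired-end reads to mm10 with STAR 2.5.3 and counted reads per gene with HTSeq 0.9.1. The deposited values are scores, that is, reads scaled by the authors to 20 M per library and rounded up. The table names the control groups KO, the sample labels WT and the methods CD27+/-, and the KO columns were taken as these controls, an assignment on which every comparison of genotypes rests. Rows bearing clone names (4131) were not used, as they depart from the step of their library, and of rows sharing 1 of 97 names the one with the largest total kept it. A gene was tested if 2 or more libraries reached 60, with limma 3.58.1 (R 4.3.3) on log2(value + 5), with 4 group means, a trend in the prior variance (12.3 prior degrees of freedom) and Benjamini-Hochberg adjustment over 12816 genes, and called where the adjusted p was under 0.05 and the log2 fold change exceeded 1 in size. Every adjusted p is from limma. Fold changes on this scale understate the change of low values. The procedure was tested on simulated data. For members, 157 low values lay on the step of their library in 100% of cases, and limma-voom on the reads so obtained served as an alternative.

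The members, the marker and pathway lists and the rule for named genes (all constant, J and D members, *Jchain*, the V segments with the largest sums or a call, and of each list the called genes and those with the largest sums) were chosen with earlier results of these data known. Defining markers near 0 and *Gm30211*, *Ighd3-2* and *Igkj3* were added after their values were seen. Positions are from GENCODE M21 (GRCm38), which held the identifiers of all 25 members. Of the B cell list, 1 marker is not reported here by name.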

Additional observations from a re-analysis of the deposited data

Results flagged for a closer look

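In 2 members under the minimum for testing, both CD70Tg libraries lay above both control libraries in Tregs and below both in Tconvs. For *Ighg3*, the mean in CD70Tg was 31.0 above control in Tregs and -6.5 relative to control in Tconvs. For *Ighv5-17*, the corresponding differences were 32.5 and -4.0. With no minimum value, the difference between the 2 responses had an adjusted p of 0.38 for *Ighg3* and 0.146 for *Ighv5-17* (limma), and each rests on 3 to 6 reads per CD70Tg Treg library.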

How the results depend on the processing

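No paired analysis was possible because replicate numbers are given in the titles alone, not in the table. The number of members called higher with CD70Tg in Tregs was 4, and 2 with a mean of at least 60, which leaves fewer members tested. The 1 member called lower in Tregs (*Igkv5-39*) became 0 with no minimum value, with a mean of at least 60 and with limma-voom on reads, and was 0 to 1 on leaving out 1 library. In Tconvs, the 0 members called lower became 1 with limma-voom on reads (*Igkv5-39*), and 0 to 1 on leaving out 1 library (*Ighd*, without the second CD70Tg Tconv library). The other counts stayed within 1.5 times under the alternatives run, among them a pseudocount of 1 or 20, median-of-ratios factors, the 4 libraries compared alone and no threshold on the fold change. Of 472 alternatives to the 32 fold changes with an adjusted p under 0.05, 440 kept direction and significance, 32 lost significance and 0 turned direction. The 32 were those of *Igkj5*, *Igkj2*, *Igkj1* and *Igkv5-39*, and the cause was not tested. With no minimum value, members otherwise untested were called higher in Tregs than in Tconvs in CD70Tg mice (*Ighg2b*, *Ighg3*, *Ighv5-17*, *Igkj4* and *Igkv1-135*, adjusted p 0.00145 to 0.0418) and in controls (*Ighv1-80*, 0.0272), and *Ighv5-17* higher with CD70Tg in Tregs (0.0217).

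The mean level of kappa V members per length, as a share of *Igkc*, was 34.4% in control and 0.806% in CD70Tg Tconvs, and 48.3 and 1.96% in Tregs. With no minimum sum it was 121.0% in control Tconvs, 6.78% in CD70Tg Tconvs, 95.4% in control Tregs and 10.8% in CD70Tg Tregs. With a minimum of 30 it was 3.69% in CD70Tg Tconvs, 78.7% in control Tregs and 6.28% in CD70Tg Tregs. The share was lower in CD70Tg cells under each minimum. Of 240 alternatives to summed class values, 201 moved by no more than the SD between the 2 libraries of the group. Leaving out 1 of 2 libraries cannot move a mean further than that. A changed minimum sum cannot move a class with 1 row, so that nothing is read from this count. Depth limits the V members, at 0 to 21 reads per library.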
